A study of Mus musculus with 24 samples.

Results

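Thymic lymphomas that carried much Cdkn2a mRNA were compared with lymphomas that carried almost none. Cdkn2a was read as CPM, a gene's count divided by the library's total count, times 1e6. Members were chosen by this Cdkn2a level alone, and the 9 lymphomas at either end of its range, of 21 lymphomas and 24 libraries in all, form the 2 groups. At least 30 CPM put TL7, TL10, TL14 and TL32 in the high-Cdkn2a group, and less than 2 CPM put TL4, TL18, TL20, TL34 and TL35 in the minimal-Cdkn2a group. The 12 lymphomas between these limits entered neither group. Because Cdkn2a itself chose the groups, its difference between them is not a result.

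All lymphomas came from female B6C3F1 mice, hybrids of the C57BL/6 and C3H strains, that had been exposed over the whole body to carbon ions of 1.6 Gy on 4 occasions, 1 per week, from an age of 4 to 5 weeks. The 3 normal thymus libraries, Thy-1, Thy-2 and Thy-3, carry the same treatment label, and a mark, 7W, that the labels do not explain. The material was cell suspensions, of lymphoma or of thymocytes, and polyadenylated RNA was sequenced as 1 library per sample, under a single batch date. The submitters divided the lymphomas by mutation of Ikzf1, which encodes the T-lineage transcription factor Ikaros. TL7, TL10 and TL14 of the high group and TL4 of the minimal group belong to the mutated set. TL32 and the other 4 minimal lymphomas belong to the unmutated set. Of the high group 3 of 4 and of the minimal group 1 of 5 were mutated (two-sided Fisher's exact test, p = 0.206). Nothing in the labels ties each lymphoma to a separate mouse. The p-values therefore cover only the spread between these samples, which may be technical in part.

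Cdkn2a encodes a pair of unrelated tumour suppressor proteins that are read from a shared second exon in different frames. p16Ink4a blocks the kinases CDK4 and CDK6, which otherwise phosphorylate RB and release E2F factors to start DNA replication. p19Arf binds MDM2 and so protects p53 from degradation. Each protein has its own promoter and first exon, whereas the deposited counts are summed over the gene, so p16Ink4a and p19Arf transcripts cannot be told apart here. Loss of Cdkn2a by deletion or silencing is common in mouse thymic lymphoma and in human T-cell leukaemia. Where Cdkn2a mRNA is high, cells have often lost RB or p53 function.

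The promoters of Cdkn2a and Ryk are shown because these genes separated the groups by the widest margins, the first by choice and the second in the test described below. Each sequence holds the 250 bases before the annotated start, 5′ to 3′ on the gene's own strand, from RefSeq on GRCm38.p6. Capitals mark an E2F motif, searched as TTTCCCGC, TTTCGCGC, TTTGCCGC or TTTGGCGC on both strands.
Cdkn2a, upstream promoter that serves p19Arf (minus strand, chr4:89294620-89294869): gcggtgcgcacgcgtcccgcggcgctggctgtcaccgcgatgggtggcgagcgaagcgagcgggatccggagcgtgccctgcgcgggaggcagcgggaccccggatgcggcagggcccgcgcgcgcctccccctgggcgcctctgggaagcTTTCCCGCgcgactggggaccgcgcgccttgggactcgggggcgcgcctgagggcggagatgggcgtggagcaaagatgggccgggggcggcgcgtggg
Cdkn2a, downstream promoter that serves p16Ink4a (minus strand, chr4:89282193-89282442): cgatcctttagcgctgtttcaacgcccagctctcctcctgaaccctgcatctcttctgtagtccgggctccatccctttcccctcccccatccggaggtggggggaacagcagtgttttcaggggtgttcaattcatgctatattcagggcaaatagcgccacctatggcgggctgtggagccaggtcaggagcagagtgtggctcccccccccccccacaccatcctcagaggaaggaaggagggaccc
Ryk (plus strand, chr9:102834670-102834919): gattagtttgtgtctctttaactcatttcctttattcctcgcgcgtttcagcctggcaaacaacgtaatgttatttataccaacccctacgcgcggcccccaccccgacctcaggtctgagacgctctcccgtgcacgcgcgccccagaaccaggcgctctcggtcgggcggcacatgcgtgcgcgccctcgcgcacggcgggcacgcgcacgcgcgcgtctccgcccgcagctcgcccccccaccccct
The upstream Cdkn2a promoter held 1 E2F motif and the other sequences held 0. Of 32851 promoters of this length in the table, 611 (1.86%) held one. The E-box CACGTG, which Myc and related factors bind, was in none of the 3 windows and in 1978 (6.02%) of all promoters. GC content was 78.4% in the upstream Cdkn2a promoter, 60% in the downstream one and 65.2% in that of Ryk.

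In the high group Cdkn2a stood at 79.1 CPM in TL7, 43.8 in TL10, 73.1 in TL14 and 74.2 in TL32. In the minimal group it stood at 1.03 CPM in TL4, 0.435 in TL18, 1.79 in TL20, 0.969 in TL34 and 1.19 in TL35. The nearest lymphomas left out were TL13 at 19.98 CPM, below TL10, and TL17 at 3.76 CPM, above TL20. Thymus lay lower still, at 0.327, 0.122 and 0.185 CPM. Each minimal lymphoma had a Cdkn2a level above the highest thymus value, and TL10 was the lowest of the high group.

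**Figure D1:**
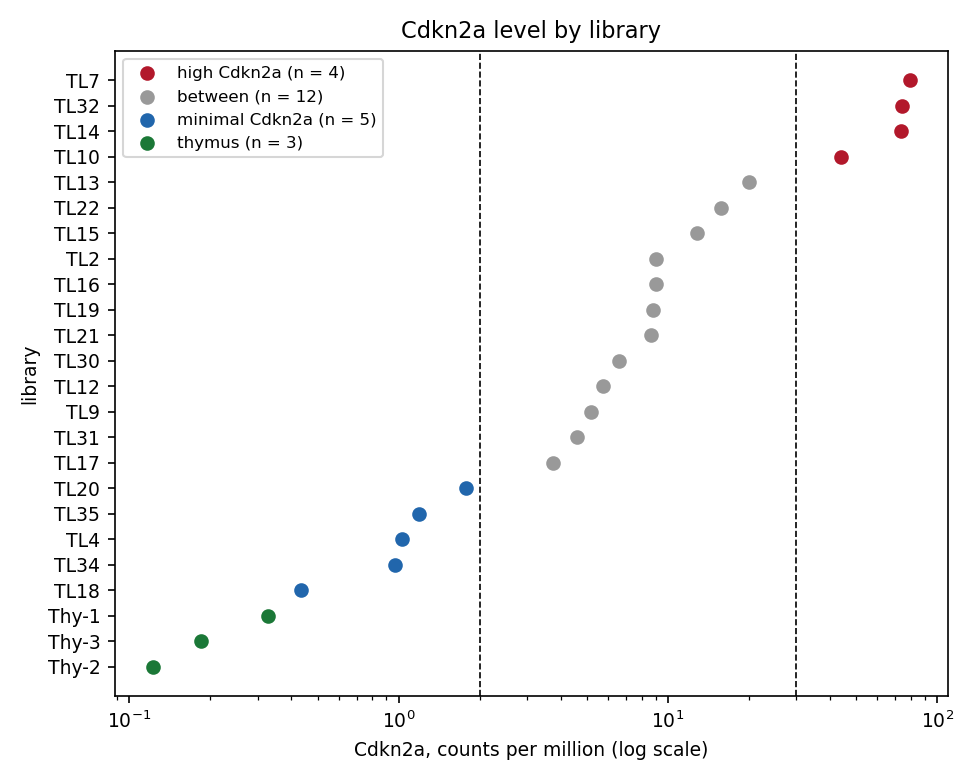
Cdkn2a level (CPM, log scale, x axis) in each of the 24 libraries (y axis, ordered by level), coloured by group, with dashed lines at 30 and 2 CPM. The 4 high lymphomas range from 43.8 to 79.1 CPM and the 5 minimal lymphomas from 0.435 to 1.79 CPM, with 12 lymphomas between.

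The library totals overlapped, with 16004690 to 36559710 counts in the high group and 20635581 to 32200114 in the minimal group (two-sided exact permutation test, p = 0.579). Of the T-lineage genes, Cd3e ranged from 153 to 395 CPM and Tcf7 from 1393 to 3104 CPM in the 9 lymphomas. Lck, the kinase that starts receptor signalling, ranged from 15.03 to 369.95 CPM (thymus 593 to 744). Ptcra, the pre-receptor chain of immature thymocytes, ranged from 0.093 to 256 CPM (thymus 46.7 to 58.2), so it was near 0 in at least 1 lymphoma. Foxn1 of thymic epithelium was at or below 0.37 CPM and Ncr1 of natural killer cells at or below 0.49 CPM, while the natural killer and cytotoxic list as a whole summed to 170 to 2707 CPM. In bulk RNA, fewer cells of a type and less RNA per cell cannot be told apart.

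Few single genes separated high from minimal lymphomas beyond the spread within the groups. In edgeR's quasi-likelihood test, 1 of 12039 genes passed an adjusted p of 0.05 (0.00831%), and it was Ryk, higher in the high group. None was lower. At an unadjusted p under 0.05 there were 552 higher genes (4.59%) and 526 lower genes (4.37%), and DESeq2 called 48 genes (0.421%), 27 higher and 21 lower. The groups did not overlap in CPM for 178 genes that lay higher (1.48%) and 147 that lay lower (1.22%), or 2.7% together.

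Ryk encodes an atypical receptor tyrosine kinase that binds Wnt ligands. In the high group it stood at 40.1 CPM in TL7, 62.8 in TL10, 27.2 in TL14 and 34.3 in TL32. In the minimal group it stood at 0.277 CPM in TL4, 0.621 in TL18, 0.582 in TL20, 0.194 in TL34 and 0.561 in TL35. The lowest high lymphoma thus lay far above the highest minimal one, and the minimal values rest on 4 to 20 counts per library against 549 to 2297 in the high group. Thymus held 1.20, 0.856 and 0.925 CPM. Ryk rose 87.6-fold (log2 fold change 6.45, SE 0.45, edgeR adjusted p = 0.000842), higher in 4 of 4 high lymphomas than in each minimal one.

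The separation was present on both sides of the Ikzf1 division. Among mutated lymphomas, TL7, TL10 and TL14 had 27.2 to 62.8 CPM and TL4 had 0.277. Among unmutated lymphomas, TL32 had 34.3 CPM and the 4 minimal lymphomas had 0.194 to 0.621. A fit that included the mutation set as a term gave Ryk a log2 fold change of 6.60 (adjusted p = 0.00863).

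In the 12 lymphomas between the limits Ryk varied widely. It ran from 0.162 CPM in TL30 to 104 CPM in TL16, and 3 lymphomas were at or above the lowest high one while 7 stayed under 5 CPM. TL13, with the most Cdkn2a of the 12, had 2.23 CPM of Ryk, and TL17, with the least, had 25.6 CPM. The fitted slope of Ryk on log2(Cdkn2a CPM + 1) was -0.82 (SE 1.61, unadjusted p = 0.62). The call in the 9 lymphomas was lost when all 21 lymphomas shared 1 estimate of the spread (log2 fold change 6.45, adjusted p = 0.201), and when the minimal group was widened to below 5 CPM, which added TL17 and TL31 (log2 fold change 3.31, adjusted p = 0.839).

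**Figure D2:**
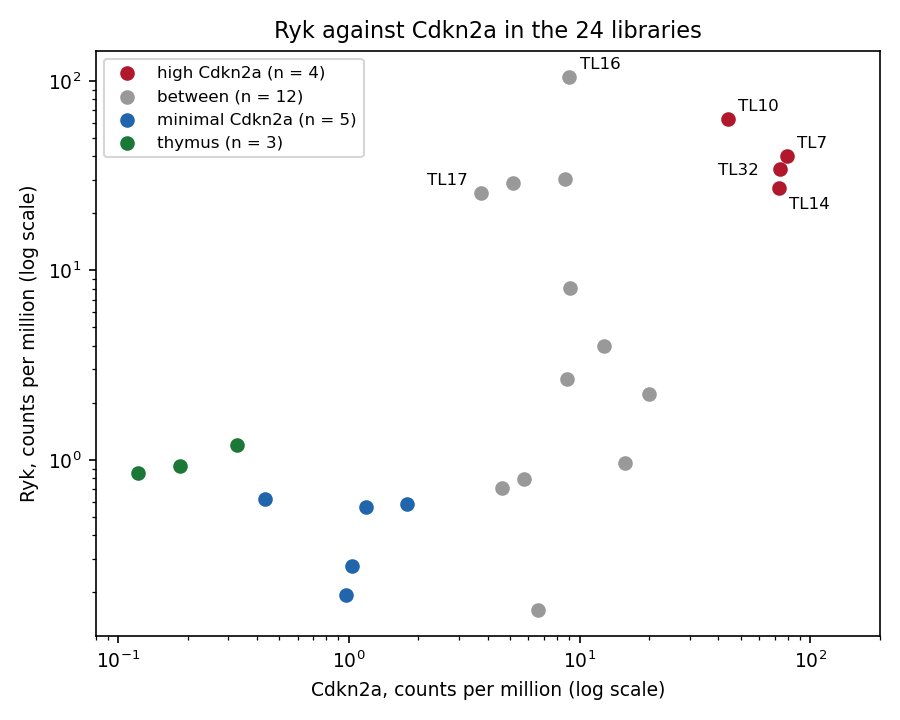
Ryk (y axis) against Cdkn2a (x axis), both in CPM on log scales, 1 point per library. The 4 high lymphomas lie at 27.2 to 62.8 CPM of Ryk and the 5 minimal lymphomas at 0.194 to 0.621, while the 12 lymphomas between spread from 0.162 to 104.

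Ryk lies on chromosome 9 (GRCm38, 102834917 to 102908305, plus strand). Of the 12 genes within 500 kb of it, 6 were tested, and 0 had an unadjusted p under 0.05. Their median log2 fold change was -0.33, from -0.65 to 0.23, so the genes around Ryk did not share its difference. A further gene with a wide difference was Ncs1, which encodes a calcium sensor of neurons, chosen after its values were seen. It stood at 3.69, 11.4, 9.43 and 0.812 CPM in TL7, TL10, TL14 and TL32, and from 0.097 to 0.280 CPM in the minimal group. The groups did not overlap (log2 fold change 5.08, SE 0.76, edgeR adjusted p = 0.373, and 4.15e-07 in DESeq2), and each of the 12 lymphomas between had more Ncs1 than the highest minimal one. Thymus, at 3.30 to 3.87 CPM, lay above TL32.

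Cdkn2b, which encodes the related CDK4/6 inhibitor p15Ink4b, is the next gene to Cdkn2a on chromosome 4 (Cdkn2a, 89274471 to 89294653; Cdkn2b, 89306299 to 89311039; both minus strand). It stood at 1.79, 0.985, 0.775 and 0.750 CPM in TL7, TL10, TL14 and TL32, from 12 to 36 counts. In the minimal group it stood at 0 in TL4 and TL34, 0.248 in TL18, 0.078 in TL20 and 0.280 in TL35, from 0 to 8 counts. All 4 high lymphomas lay above all 5 minimal ones, at levels close to the limit of detection, and thymus held 0.111 to 0.327 CPM. The fitted log2 fold change was 3.002 (SE 0.91, unadjusted p = 0.00848), and after adjustment over all genes it did not pass (edgeR adjusted p = 0.551).

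Mtap, a purine salvage enzyme on the other side of Cdkn2a that is often deleted with it, did not separate the groups. It stood at 101 to 273 CPM in the high and 82.0 to 202 CPM in the minimal lymphomas (log2 fold change 0.14, SE 0.33). Each high and each minimal lymphoma had Mtap mRNA above the highest thymus value of 72.7 CPM. Deletion at the Cdkn2a locus was not tested. Within 5 Mb of Cdkn2a, 15 of 56 genes were tested, 0 passed the adjusted threshold, and 2, Cdkn2b and Dennd4c, had an unadjusted p under 0.05. The median log2 fold change of the 15 was 0.11. A list of 10 tested chromosome 4 neighbours, with Cdkn2b and without Cdkn2a, had a mean log2(CPM + 1) of 4.55 to 4.63 in the high group. In the minimal group it was 4.16 to 4.49, without overlap, and the lymphomas between spanned 4.19 to 4.97. The part of Cdkn2b in this mean was not tested. Over whole chromosomes, the median log2 ratio to thymus was 0.005 in the high and -0.080 in the minimal group for chromosome 4 (difference 0.085, two-sided exact permutation p = 0.00794, the smallest that 4 against 5 libraries can give). Larger positive differences were found on chromosomes 1 (0.144), X (0.128), 5 (0.097), 12 (0.097) and 19 (0.095). By the same exact permutation test their p-values were 0.032, 0.095, 0.016, 0.167 and 0.635, and on each the groups overlapped. On chromosome 19, TL7 stood at 0.454 and the other high lymphomas at -0.224 to -0.013. On chromosome 4 the groups did not overlap, at -0.014 to 0.054 in the high and -0.096 to -0.045 in the minimal group. The difference was negative on chromosomes 7, 10, 11 and 15. With adjustment over the 20 chromosomes the p for chromosome 4 was 0.159, and 0 chromosomes passed.

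The p53 arm was examined next, since p19Arf acts on it. Trp53 mRNA stood at 238, 265, 271 and 267 CPM in TL7, TL10, TL14 and TL32. It stood at 331, 297, 328, 297 and 299 CPM in TL4, TL18, TL20, TL34 and TL35. Each high lymphoma was below each minimal one, and both groups were above thymus, at 198 to 199 CPM. The difference was small (log2 fold change -0.29, SE 0.11, unadjusted p = 0.0245) and did not pass adjustment (edgeR adjusted p = 0.551). In the lymphomas between, 6 of 12 had Trp53 at or above the lowest minimal value.

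Mdm2, the ubiquitin ligase that degrades p53 and is itself induced by it, was at 99.7 to 116 CPM in the high and 72.6 to 135 CPM in the minimal group (log2 fold change 0.11, SE 0.17). Cdkn1a, the p53 target that encodes the CDK inhibitor p21, was at 2.56 to 11.9 and 1.71 to 12.6 CPM (log2 fold change -0.26, SE 0.71). Neither gene separated the groups. Of 15 tested genes around Arf, Mdm2 and p53, 0 passed the adjusted threshold. At an unadjusted p under 0.05, against 4.59% of all genes higher and 4.37% lower, 1 was higher, Mdm4 (a relative of Mdm2 that inhibits p53, log2 fold change 0.47, SE 0.17), and 1 was lower, Trp53.

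Genes known as p53 targets lay in both directions. Of 40 tested, 0 passed the adjusted threshold, 5 were higher and 3 lower at an unadjusted p under 0.05, against 4.59% and 4.37% of all genes, and the median log2 fold change was 0.16 against 0.00 for all tested genes. Rps27l, which encodes a ribosomal protein-like regulator of p53, was lower without overlap, at 93.7 to 142 CPM against 153 to 239 CPM (log2 fold change -0.72, SE 0.18). Ephx1, an epoxide hydrolase, was at 24.3, 28.1, 42.7 and 8.25 CPM in TL7, TL10, TL14 and TL32 against 3.34 to 12.3 CPM (1.69, SE 0.50). The kinase gene Plk2 was at 29.2 CPM in TL10 and 29.1 in TL32 but 0.739 in TL7, against 0.388 to 4.55 CPM (3.24, SE 1.00). Trp53inp1, a stress-induced partner of p53, was at 285 to 569 against 68.3 to 406 CPM (1.00, SE 0.43). These last 3 overlapped between the groups, and each of the 4 genes had an edgeR adjusted p of 0.551.

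In the RB arm, on which p16Ink4a acts, no gene passed the adjusted threshold. Cdk4 stood at 325, 420.4, 489.7 and 467 CPM in TL7, TL10, TL14 and TL32, and at 484, 584, 711, 487 and 615 CPM in TL4, TL18, TL20, TL34 and TL35. TL14 lay above TL4 and TL34, so the groups overlapped (log2 fold change -0.47, SE 0.18, unadjusted p = 0.027, edgeR adjusted p = 0.551). Rb1 was at 84.4 to 142 CPM in the high and 40.8 to 101 CPM in the minimal group (0.54, SE 0.26, unadjusted p = 0.066). Of the high lymphomas, TL7, TL14 and TL32 lay within the 104 to 146 CPM of thymus for Rb1, and TL10, at 84.4 CPM, lay below it. RB protein and its function were not tested.

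Cdk6, Ccnd2 and Ccnd3, which encode the other kinase and the D cyclins of T cells, overlapped between the groups. Their log2 fold changes were -0.41 (SE 0.33), -0.39 (SE 0.94) and -0.21 (SE 0.36). Of the 28 tested genes of the INK4, cyclin D and RB axis, 0 passed the adjusted threshold, and at an unadjusted p under 0.05 Cdkn2b and Cdkn1b (p27Kip1, 0.70, SE 0.27) were higher and Cdk4 was lower, counts near the 4.59% and 4.37% of all genes. The direction was negative for 20 of the 28, with a median of -0.13.

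Genes that repress or induce Cdkn2a gave no call by edgeR either. Bmi1 and Ezh2, polycomb subunits that silence the locus, were at 105 to 193 and 213 to 383 CPM in the high group and at 87.2 to 297 and 258 to 415 CPM in the minimal group. Their log2 fold changes were -0.18 (SE 0.35) and -0.25 (SE 0.21). Of 22 tested repressors, 2 were higher at an unadjusted p under 0.05, against 4.59% of all genes. They were the DNA methyltransferase gene Dnmt3a (0.37, SE 0.14) and the H3K27 methyltransferase gene Ezh1 (0.58, SE 0.24).

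Among 23 activators 3 were higher and 1 lower at that level, against 4.59% and 4.37% of all genes, so the lower count lay near the share of all genes. Ets1, a transcription factor of T cells that can activate the p16Ink4a promoter, stood at 1462, 1440.4, 1424 and 1055 CPM in TL7, TL10, TL14 and TL32, and at 1003, 567, 534, 679 and 515 CPM in TL4, TL18, TL20, TL34 and TL35. The groups did not overlap, although TL32 and TL4 differed little (log2 fold change 0.99, SE 0.22, adjusted p = 0.551 in edgeR and 0.0218 in DESeq2). Hbp1, a transcriptional repressor linked to cell cycle arrest, was at 58.0 to 120.4 against 20.6 to 60.2 CPM (0.92, SE 0.30), and Smad3 of the TGF-beta pathway at 166 to 247 against 23.1 to 145 CPM (1.08, SE 0.47). Smarca4, the BRG1 chromatin remodeller, was the lower one, at 272 to 343 against 365.8 to 431 CPM (-0.35, SE 0.13).

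Myc, which induces Arf, was at 154 to 362 CPM in the high and 143 to 535 CPM in the minimal lymphomas (log2 fold change -0.21, SE 0.40). Notch1, the receptor most often activated in these tumours, was at 79.0 CPM in TL7 and 968 to 1062 CPM in the other high lymphomas, and spanned 51.0 to 1614 CPM in the minimal group (-0.14, SE 0.95). Bcl11b, a T-lineage factor and tumour suppressor, was at 196 to 434 and 175 to 439 CPM (0.00, SE 0.29). Jag1, a Notch ligand, was at 51.1 CPM in TL7 and at 0.653 CPM or less in the other 8. Notch1 thus spread widely within both groups, and Jag1 stood apart in TL7 alone.

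Ikzf1 stood at 1365, 724, 1351 and 992 CPM in TL7, TL10, TL14 and TL32, and at 597, 546, 487, 455 and 820.2 CPM in TL4, TL18, TL20, TL34 and TL35. TL10 lay below TL35 and the other high lymphomas lay above all minimal ones (log2 fold change 0.90, SE 0.24, unadjusted p = 0.00401, edgeR adjusted p = 0.551). Its relatives Ikzf2 (Helios) and Ikzf3 (Aiolos) lay higher too, at 190 to 642 against 38.9 to 211 CPM and at 230 to 529 against 74.0 to 310 CPM (1.81, SE 0.61, and 1.26, SE 0.43), each with overlap. With the mutation set as a term, the Ikzf1 difference was 0.84 (unadjusted p = 0.022). Ddc and Grb10, neighbours of Ikzf1 on chromosome 11, spanned 10.9 to 168 against 0.198 to 108 CPM and 0.062 to 10.4 against 0.119 to 21.8 CPM, with log2 fold changes of -0.28 (SE 1.16) and -1.32 (SE 1.67).

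After Ryk, the named genes with the smallest p-values in each direction, among genes whose higher group averaged 10 CPM or more, were 5 that lay higher and 6 that lay lower, none of which passed (edgeR adjusted p = 0.551 for each). Cytip, which encodes a lymphocyte regulator of adhesion, stood at 384, 225, 270.1 and 84.4 CPM in TL7, TL10, TL14 and TL32 against 24.6 to 70.6 CPM (log2 fold change 2.12, SE 0.41). Plxna3, a semaphorin receptor, stood at 29.7, 21.6, 47.1 and 28.1 CPM against 2.76 to 10.9 CPM (2.01, SE 0.40). Cracr2a, a regulator of store-operated calcium entry, was at 44.8 to 64.0 against 29.7 to 32.2 CPM (0.78, SE 0.14). In all 3 the groups did not overlap, and thymus lay near the minimal group for Plxna3 and Cracr2a (7.58 to 8.77 and 29.7 to 33.4 CPM) but within the range of the high group for Cytip (259.8 to 299.9 CPM).

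Trp53bp1, which encodes the double-strand break repair protein 53BP1, was at 119, 99.6, 89.6 and 84.6 CPM in the high lymphomas against 54.5 to 70.3 CPM (log2 fold change 0.69, SE 0.13). Zer1, a substrate receptor of a ubiquitin ligase, was at 79.5 to 117 against 53.5 to 67.2 CPM (0.67, SE 0.14). The lower genes were Atp5h (subunit d of the mitochondrial ATP synthase, -0.63, SE 0.13), Mrps7 (a mitochondrial ribosomal protein, -0.57, SE 0.14), Foxp4 (a forkhead transcription factor, -0.92, SE 0.22), Exosc6 (an RNA exosome subunit, -0.66, SE 0.16), Skp1a (core subunit of SCF ubiquitin ligases, -0.74, SE 0.18) and Hexim1 (inhibitor of the elongation kinase P-TEFb, -0.53, SE 0.13). Atp5h stood at 198, 242, 225 and 223 CPM against 283, 364, 335, 341 and 345 CPM. None of these 8 genes overlapped between the groups, and all 11 passed with DESeq2. Adding the mutation set to the fit gave all 11 an adjusted p of 1, with each direction unchanged.

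**Figure D3:**
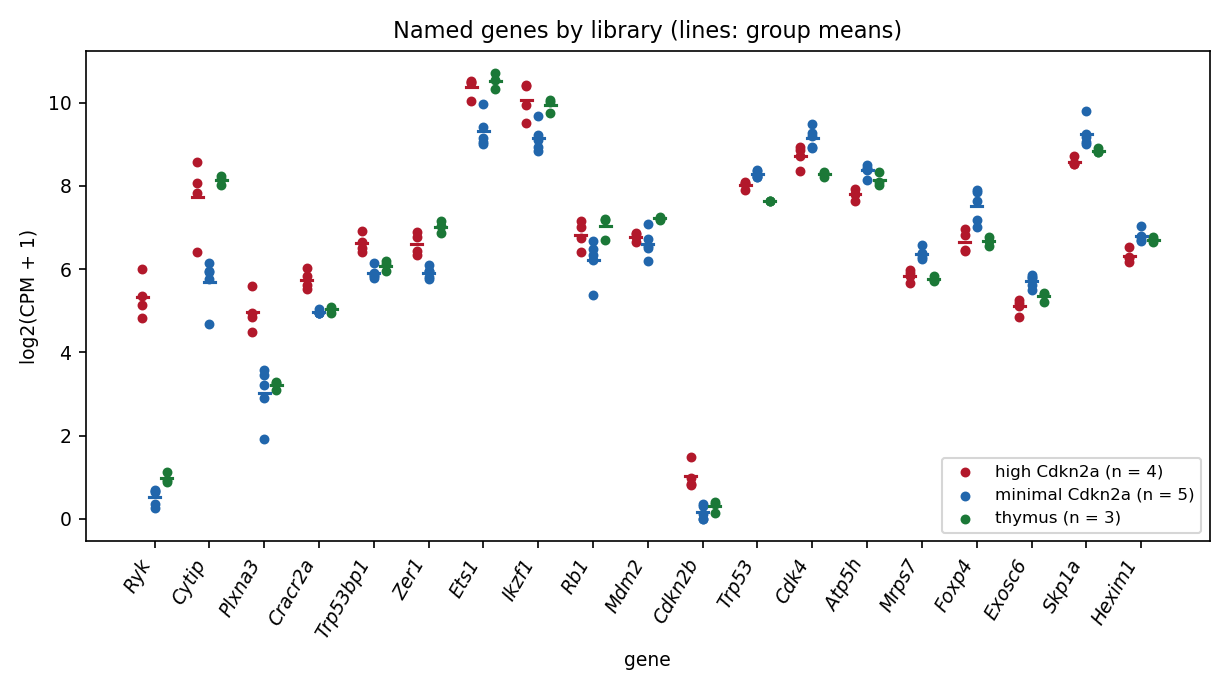
Level of 19 genes as log2(CPM + 1) (y axis) in each high, minimal and thymus library (points), with group means as lines. Ryk has the widest gap between high and minimal lymphomas, while Rb1, Mdm2, Cdk4 and Ikzf1 overlap between them.

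In several gene groups nearly all members lay in 1 direction, although none passed singly. Mature thymocyte and T cell markers had a positive log2 fold change in 20 of 20 tested members, with a median of 1.34 against 0.00 for all genes, and 7 had an unadjusted p under 0.05, against 4.59% of all genes in that direction. Klf2, the transcription factor that sets the program for leaving the thymus, stood at 138, 65.7, 120.3 and 21.9 CPM in TL7, TL10, TL14 and TL32 against 1.55 to 22.3 CPM (2.64, SE 0.68). Only TL32 lay within the minimal range for it. Gimap6 and Gimap4, GTPases of resting lymphocytes, were at 91.8 to 490.2 against 7.27 to 81.8 CPM and at 69.5 to 415 against 4.26 to 109 CPM (1.92, SE 0.65, and 2.36, SE 0.83). Ctla4, an inhibitory receptor, reached 36.4 CPM in TL10 and 9.06 in TL32 but was at 0.422 in TL7 (3.98, SE 1.37).

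The mean of these markers on the log2(CPM + 1) scale was 6.73, 5.57, 5.52 and 5.26 in TL7, TL10, TL14 and TL32, and 4.03, 5.12, 3.78, 2.62 and 5.34 in TL4, TL18, TL20, TL34 and TL35. TL32 lay just below TL35, and thymus lay at 6.14 to 6.48. Without TL7 the direction was positive for 17 of 20 members and 2 were higher at an unadjusted p under 0.05, against 3.07% of all genes. When the fit held the mutation set as a term, all 20 stayed positive and 1 had an unadjusted p under 0.05, against 1.45% of all genes in that direction and fit.

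The T cell receptor list, with the complex and its proximal signalling, was positive in 22 of 24, with a median of 0.48. In this list 8 were higher at an unadjusted p under 0.05, against 4.59% of all genes. Cd3d, a subunit of the receptor complex, stood at 445, 536, 341 and 363 CPM in TL7, TL10, TL14 and TL32, and at 361, 306, 231, 276 and 251 CPM in TL4, TL18, TL20, TL34 and TL35. TL4 alone of the minimal group lay above the lowest high lymphoma, TL14 (log2 fold change 0.52, SE 0.18, adjusted p = 0.551 in edgeR and 0.228 in DESeq2). The adaptor Lcp2 (0.81, SE 0.28) also missed the threshold, with overlap. At that level 1 of the 24 was higher in the fit that held the mutation set, against 1.45% of all genes. Without TL7 it was 2 of the 24, against 3.07% of all genes, and without TL4 15 of the 24, against 7.13%.

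Cytokine signalling followed the same direction in part. Of 24 IL-7 and JAK-STAT genes 18 were positive, with a median of 0.32, and Jak1 was at 451 to 1001 against 310.3 to 439 CPM without overlap (log2 fold change 0.72, SE 0.22), whereas Tyk2 overlapped (1.01, SE 0.36). Of 20 immediate-early genes 15 were positive, with a median of 0.41. Egr1 and Egr3, induced by receptor signals, were high in TL7 and TL14 (110.1 and 147, and 32.6 and 33.8 CPM) and lower in TL10 and TL32 (39.0 and 28.7, and 2.46 and 1.31 CPM), against 1.31 to 29.6 and 0.291 to 2.94 CPM in the minimal group (2.49, SE 0.88, and 3.43, SE 1.09). Zfp36, an mRNA decay factor, did not overlap (1.18, SE 0.44).

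Growth-related groups pointed the other way. DNA replication and E2F target genes were negative in 32 of 33 (median -0.34), ribosome biogenesis genes in 25 of 26 (median -0.31), nuclear genes of oxidative phosphorylation in 23 of 24 (median -0.31) and mitosis genes in 26 of 30 (median -0.20). At an unadjusted p under 0.05, 2, 5, 5 and 1 of them were lower, against 4.37% of all genes, and 0 passed the adjusted threshold. The counts for replication and mitosis thus lay near the share of all genes. Among the leading members were the flap endonuclease Fen1 (109 to 128 against 113 to 232 CPM, log2 fold change -0.60, SE 0.20), the origin subunit Orc6 (-0.49, SE 0.20), the ribosome assembly factors Nop16 (-0.67, SE 0.20) and Bop1 (-0.65, SE 0.22), and the respiratory chain subunits Cox5a (-0.54, SE 0.16) and Ndufa4 (-0.59, SE 0.18). Cox5a, at 163 to 201 against 217 to 308 CPM, and Ndufa4, at 142 to 173 against 182 to 301 CPM, did not overlap.

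Part of this rested on TL7. Its mean level of replication genes was 6.5 on the log2(CPM + 1) scale, against 7.39 to 7.51 in the other 3 high lymphomas and 7.02 to 7.98 in the minimal group, so those 3 lay inside the minimal range. Without TL7 the medians were -0.14 for replication, -0.17 for ribosome biogenesis and -0.22 for oxidative phosphorylation, with 29 of 33, 22 of 26 and 18 of 24 members negative. Mitosis genes were then negative in 15 of 30, with a median of 0.01. TL7 also had the highest mature marker level of the 24 libraries. For the mean of oxidative phosphorylation genes, TL4 of the minimal group, at 7.26, lay inside the high range of 6.96 to 7.34. The other minimal lymphomas, all unmutated, lay above it at 7.37 to 7.61.

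**Figure D4:**
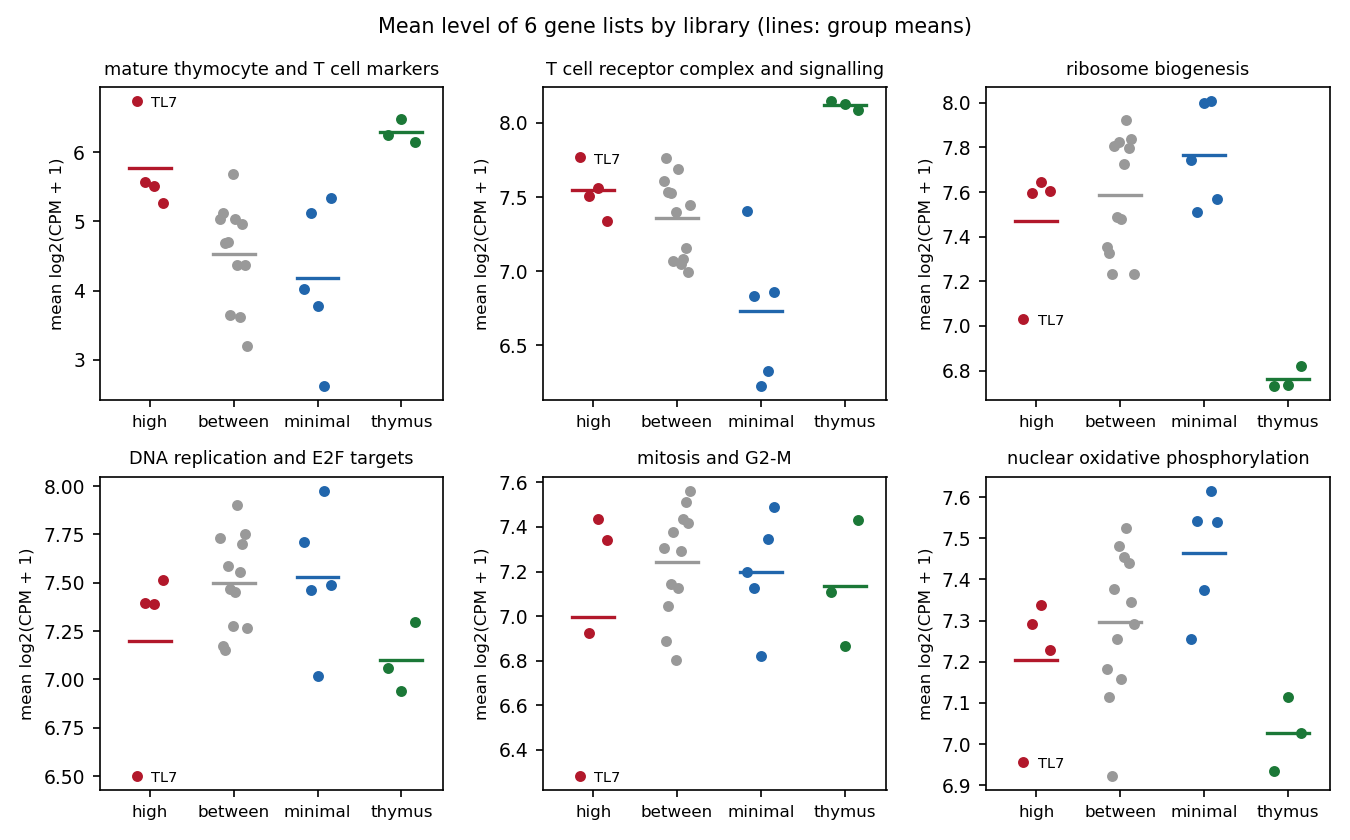
Mean log2(CPM + 1) of 6 gene lists (y axis, 1 panel per list) in each library (points) by group, with group means as lines and TL7 named. The high and minimal groups overlap in each panel, and TL7 is the lowest library for replication and mitosis genes.

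Markers of other cell types were given by their summed CPM, and macrophage and B cell markers also by their mean log2(CPM + 1). Csf1r, the defining receptor of macrophages, was at 8.78 to 30.7 CPM in the 9 lymphomas. Macrophage markers were negative in 17 of 19 tested members (median -0.34) and summed to 441 to 811 CPM in the high and 535 to 1276 CPM in the minimal group. Their mean was 4.50 in TL18 and 4.78 in TL20, but 3.41 to 3.82 in the other minimal lymphomas. The high group lay at 3.42 to 4.07. Marco, a macrophage scavenger receptor, lay between 0.125 and 1.07 against 1.12 and 1.897 CPM. B cell markers summed to 40.8 to 90.1 against 20.8 to 363 CPM (median -1.40, 10 of 11 negative). Their mean was 3.77 in TL18 and 4.49 in TL35, but 0.944 to 1.53 in TL4, TL20 and TL34. The high group lay between, at 1.68 to 2.76. Erythroid markers summed to 15.8 to 169.6 against 8.4 to 53.5 CPM (median 1.46, 6 of 8 positive). The haemoglobin gene Hbb-bt was at 4.54, 5.80, 2.82 and 0.312 CPM in TL7, TL10, TL14 and TL32 against 0.119 to 1.07 CPM. Natural killer and cytotoxic markers summed to 266 to 1705 against 170 to 2707 CPM, and to 187 to 258 CPM in thymus (median -0.12, 4 of 10 tested members positive). The sums of neutrophil, dendritic cell, endothelial and thymic epithelial markers overlapped between the groups as well. The fibroblast list holds Thy1, also a T-lineage gene, which was at 1022 to 2595 CPM in the 9 lymphomas. Its sum, 1692 to 2371 CPM in the high and 1215 to 2890 CPM in the minimal group, therefore does not measure fibroblasts. Col1a1, a collagen gene of fibroblasts, was at 3.16 to 36.9 CPM in the 9 lymphomas. Early progenitor markers were negative in 10 of 12 (median -0.95), Lyl1 among them (-1.48, SE 0.65). The part of these cells in the differences above was not tested.

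Chromosome 15, which holds Myc, was raised over thymus in TL32 (median log2 ratio 0.37) and in TL18, TL20, TL34 and TL35 (0.34 to 0.55), and not in TL7, TL10, TL14 or TL4 (-0.12 to 0.05). Within the 9 lymphomas the raised chromosome 15 and the unmutated Ikzf1 set were the same 5 libraries, so their parts cannot be told apart. The group means were 0.08 in the high and 0.31 in the minimal group (two-sided exact permutation p = 0.198, adjusted p = 0.496). In the fit that held the mutation set, 279 of 12039 genes (2.32%) had an unadjusted p under 0.05, with 0.872% of all genes lower, against 1078 (8.95%) without it, and the same number of genes, 1, passed the adjusted threshold.

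The 12 lymphomas between the limits share no library with the 9 and were used to see whether genes also varied with Cdkn2a there. Their Cdkn2a ran from 3.76 to 19.98 CPM. In a fit of each gene's slope on log2(Cdkn2a CPM + 1), 0 of 12248 genes passed an adjusted p of 0.05, and 659 (5.38%) had an unadjusted p under 0.05, 313 with a positive and 346 with a negative slope. Adding the mutation set to this fit gave 771 at an unadjusted p under 0.05, and 0 passed.

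The direction in these lymphomas was more often opposite than equal. Of the 1064 genes with an unadjusted p under 0.05 between high and minimal lymphomas that were tested in both fits, 302 (28.4%) had the same sign, and of all 11886 genes 4782 (40.2%) did. Ribosome biogenesis genes had a positive slope in 26 of 26 (median 0.24), oxidative phosphorylation genes in 24 of 24 (median 0.15) and replication genes in 33 of 34 (median 0.17), while genes of the T cell receptor complex were positive in 5 of 24 (median -0.18). Mature markers were positive in 12 of 21 (median 0.18) and erythroid markers in 9 of 9 (median 0.94). Slopes of genes in a list are not independent, since they share the 12 libraries.

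**Figure D5:**
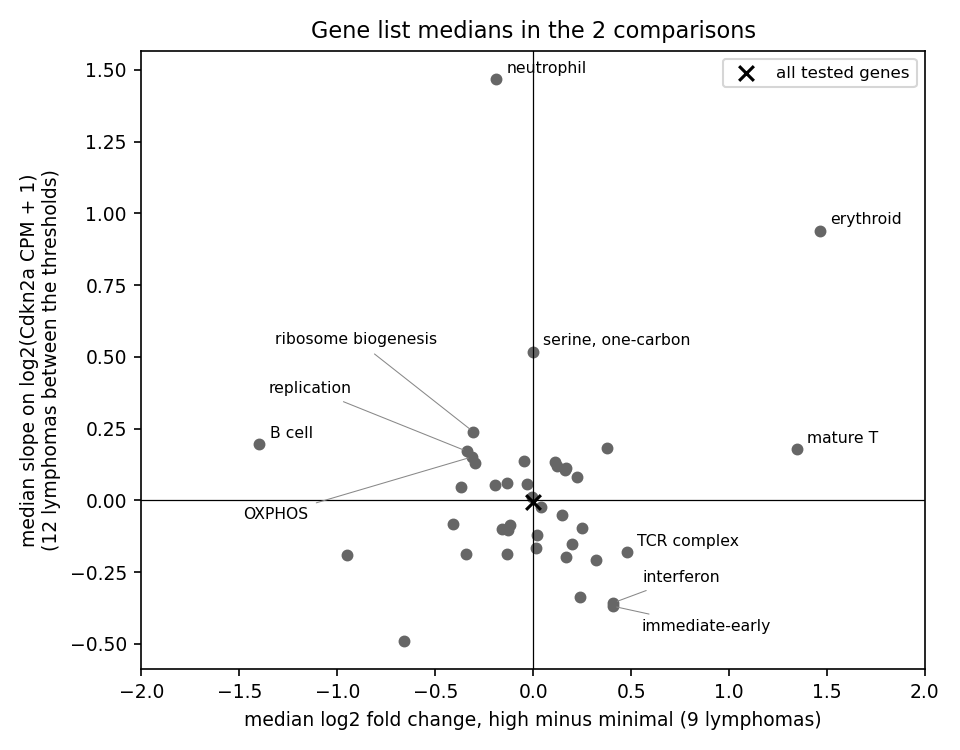
Median log2 fold change of each of 41 gene lists in the 9 high and minimal lymphomas (x axis) against its median slope on log2(Cdkn2a CPM + 1) in the 12 lymphomas between (y axis), with all tested genes as a cross. Ribosome biogenesis, replication and oxidative phosphorylation lie at negative x and positive y, and the T cell receptor complex at positive x and negative y.

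Of the 1064 genes at an unadjusted p under 0.05 between the groups, 51 were under 0.05 in the slope fit too, where 5.38% of all genes were. Of these 51, 8 (15.7%) had the same sign, against 40.2% of all genes tested in both fits. A shared sign was thus less frequent among them than among all genes. The named ones, chosen after their values were seen, were Traf5, Nelfe, Ifi204 and Trib3, which were positive in both, and Ctsl, Mtus2 and Hid1, which were negative in both; the remaining one is a predicted gene. Ctsl, the lysosomal protease cathepsin L, had a mean of 89.1 CPM in the high and 220.4 CPM in the minimal group (log2 fold change -1.35, SE 0.45) and a slope of -1.12 (SE 0.34) between the limits. Hid1, a factor of secretory trafficking, had means of 30.9 and 60.8 CPM (-1.02, SE 0.37) and a slope of -1.10 (SE 0.28). Trib3, a pseudokinase of the stress response, had means of 7.53 and 2.04 CPM (1.87, SE 0.82) and a slope of 1.69 (SE 0.74). None passed the adjusted threshold in either fit (edgeR adjusted p of 0.551 to 0.556 between the groups and 0.818 for the slope).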

How the data were processed

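The deposited table of raw counts per gene held 21878 genes for 24 libraries. The submitters' processing notes name the GRCm38.p6 build, HTSeq 0.6.1, cutadapt 1.9.1, edgeR, SAMtools and HISAT2 2.0.1, without settings. The authors' deposited TPM table served as an alternative. The Ikzf1 mutation sets were read from the columns of the authors' 2 filtered count tables, whose counts equal those of the full table in 100% of cells.

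Members, gene lists and tests were chosen with earlier results of these data known. Groups were compared with edgeR 4.0.16 (R 4.3.3; TMM, filterByExpr, quasi-likelihood F test, Benjamini-Hochberg over all tested genes but Cdkn2a, threshold 0.05). DESeq2 1.42.0 and limma 3.58.1 were alternatives. The edgeR fit was tested on simulated counts. CPM uses the column total, without TMM. Named genes were a set list of Cdkn2a, its neighbours, pathway and repressors, and Myc, Notch1, Ikzf1, Bcl11b, Ddc and Grb10. Added to it were genes past the threshold with at least 10 CPM in a group and the smallest p-values up to 6 per direction. Up to 4 leading members of each list were named as well. Positions came from GENCODE M21 for 20611 genes (94.2%). No pair of the 9 libraries agreed within counting noise (chi-square per degree of freedom 86.9 to 342 over 36 pairs). Fits without a library assume equal spread.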

Additional observations from a re-analysis of the deposited data

Results flagged for a closer look

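Within a group, 14 values stood far from the others by Dixon's test at its 95% level, among 134 groups of 4 or 5 lymphomas checked, where chance flags about 1 in 20 groups. TL7 was set apart most often. It was low for Notch1, at 79.0 CPM against 968 to 1062 in the other 3 high lymphomas, and for Smarca4, at 272 against 339 to 343 CPM. It was high for Grb10 at 10.4 against 0.062 to 0.326 CPM, for Gimap6 at 490.2 against 91.8 to 156 CPM, and for Jag1 at 51.1 against 0.246 to 0.653 CPM.

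Other values in the high group were Ets1 in TL32 at 1055 CPM (others 1424 to 1462) and Skp1a in TL32 at 418 CPM (others 369 to 376). The flagged values also include Cdkn2a in TL10 at 43.8 CPM (others 73.1 to 79.1). Because Cdkn2a itself chose the group, the chance rate does not hold for that value either, and it is not a result. In the minimal group TL4 stood above the rest for Cracr2a at 32.2 CPM (others 29.7 to 29.96), Trp53bp1 at 70.3 CPM (others 54.5 to 58.8) and Ikzf3 at 309.9 CPM (others 74.0 to 138). TL35 did so for Skp1a at 884 CPM (others 516 to 606), Hexim1 at 130.2 CPM (others 102 to 110) and Lyl1 at 18.9 CPM (others 3.05 to 6.93). No explanation was tested.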

How the results depend on the processing

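The count of genes past the threshold, 1 with edgeR, was 48 with DESeq2, 0 with all 21 lymphomas in the fit, 0 with a minimal group below 5 CPM, and 1 to 3 when each lymphoma was left out in turn. The 3 came without TL32 and were Ryk, Ncs1 (log2 fold change 5.45, adjusted p = 0.0232) and Dlx1, which was lower and was singled out after its values were seen. A high group from 20 CPM added no lymphoma. Ryk passed in 19 of 21 fits and missed with all 21 lymphomas (6.45) and with minimal below 5 CPM (3.31). The slope fit gave 0 genes, and 1, Atp5h, with all 21 lymphomas, which include the 9. No chromosome passed under any setting.

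Of 1309 alternative values for 66 named genes, 1250 kept direction and side of the threshold. With DESeq2 14 genes passed that had not with edgeR. For 9 genes, none past the threshold, the log2 fold change turned sign. Other than by leaving out a lymphoma, it did so for Bcl11b (-0.00057 with DESeq2 and with its size factors, -0.20 with minimal below 5 CPM), Ccnd2 (1.52 with the mutation term, 0.10 with voom, 0.56 and 0.26 on TPM + 0.1 and + 1, 0.036 with minimal below 5 CPM), Ddc (3.06, 0.092, 0.42, 0.079 and 0.10 in that order), Cdkn1a (0.026 with the mutation term, 0.00926 with voom, 0.13 and 0.076 on TPM), Notch1 (0.18 with voom, 0.33 and 0.32 on TPM), Bmi1 (0.065 and 0.062 on TPM) and Myc (0.0062 and 0.00581 on TPM). Leaving out each lymphoma in turn gave -0.18 to 0.18 for Bcl11b, -0.91 to 0.051 for Ccnd2, -1.47 to 0.081 for Ddc, -0.71 to 0.0036 for Cdkn1a, -0.45 to 0.22 for Notch1, -0.37 to 0.17 for Bmi1, -0.41 to 0.089 for Myc, -0.083 to 0.34 for Mtap and -0.51 to 0.11 for Ccnd3. The cause was not tested.

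No paired analysis was possible because lymphomas carry only library numbers, none shared between the groups. With 4 against 5 libraries, an exact permutation p cannot go below 0.00794. Genes near 1 CPM, such as Cdkn2b, rest on few counts, and intervals for these were not formed.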
